A study of Mus musculus with 35 samples.

Results

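The lungs described here were taken 7 days after naphthalene from mice of both genotypes of the series, and are set against untreated lungs that carry the same day label. By their titles, 5 libraries are treated (3 of RORaf/f mice and 2 of RORaf/fIl7riCre mice) and 6 are untreated (3 of each genotype), which makes 11 of the 35 libraries of the series. A single treatment effect was fitted over them with genotype as a covariate. RORaf/f mice carry loxP sites in Rora and are called control below. RORaf/fIl7riCre mice, called KO, carry the same sites and a Cre at the Il7r locus, so that the gene is lost in cells that express Il7r or descend from cells that did. Control mice carry no Cre by their label, so effects of losing Rora and of the Cre itself cannot be told apart. The series gives the age of the mice as 14 days and names no separate age for the untreated mice of day 7. RNA came from homogenised whole lung, and the labels do not say whether each library is 1 mouse, so p-values measure the spread between these libraries.

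Naphthalene is converted to toxic products by cytochrome P450 enzymes of club cells, the secretory cells of the small airways, and these cells die first. Club cells that survive, many of them near neuroendocrine bodies and at the junctions with the alveoli, divide and rebuild the airway lining, while ciliated cells flatten over the exposed surface. Club cells are known by their secretoglobins and P450 enzymes, goblet cells by gel-forming mucins, and ciliated cells by the dynein motors and radial spokes of motile cilia. In whole-lung RNA, fewer cells of a type and less of an RNA per cell cannot be told apart.

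At day 7 the club cell secretoglobin Scgb1a1 was 3.43-fold lower after naphthalene, and the esterase Pon1 was 2.0-fold lower. The increases were led by Cd177, a surface glycoprotein, at 11.8-fold, and included the epithelial chemokine Cxcl17, the mucins Muc4 and Muc5ac, the alarmin Il33 and parts of motile cilia. Of 18889 genes tested, 49 were called at an adjusted p under 0.05 by edgeR's quasi-likelihood test, which is 0.259%. The 44 called higher are 0.233% of genes tested and the 5 called lower are 0.0265%. Across all tested genes the median log2 change was -0.006 and 48.4% lay above 0, a centre that the scaling of libraries sets near 0. At an unadjusted p under 0.05 there were 672 genes higher and 190 lower. In 47 of the 49 the treated and untreated libraries did not overlap. Over all tested genes, 199 (1.05%) lay higher without overlap and 25 (0.132%) lower. A total of 33 called genes differed at least 2-fold.

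**Figure D1:**
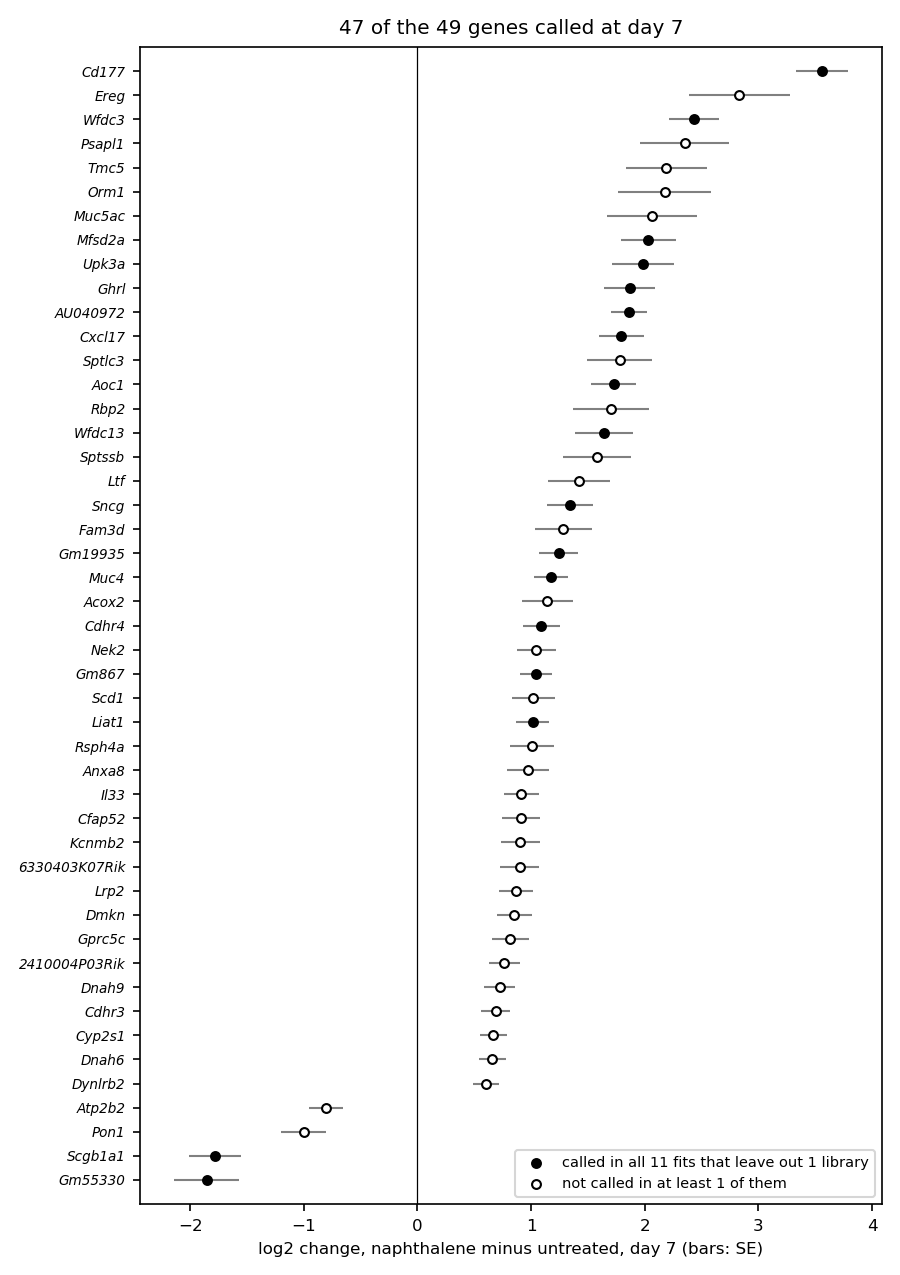
Log2 change between naphthalene and untreated lungs at day 7 (horizontal axis, bars are SE) for 47 of the 49 called genes, ordered by size. Filled points are genes called in each of the 11 fits that leave out 1 library, and the decreases shown are Scgb1a1, Gm55330, Pon1 and Atp2b2.

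The count of calls depends on each library and on the tool. Leaving out any 1 of the 11 libraries left 23 to 29 calls, and 18 of the 49 genes were called in each of these fits and in every other setting tried. DESeq2 called 122 genes, among them all 49, and a term for sex, added after the data were seen because 3 of 5 treated and 2 of 6 untreated libraries expressed Xist, left 32 calls, 28 of them shared.

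Libraries held 13.06 to 18.2 M counts after naphthalene (M being mega) and 14.5 to 21.06 M without, with no separation of the groups (exact two-sided permutation test within genotype, p = 0.605, where 0.005 is the smallest p that 200 rearrangements allow). Haemoglobin took 1.52% ± 0.526 of treated libraries (SD, n = 5) and 1.69% ± 0.542 of untreated ones (SD, n = 6). The pre-ribosomal transcript Rn18s-rs5 took 1.25% to 8.12%, with the highest share in untreated KO replicate 1. As a check of genotype, Il7r stood at 8.13 ± 1.35 CPM (counts per 1 M counts of a library, SD, n = 6) in control and 4.79 ± 1.08 CPM (SD, n = 5) in KO lungs. Rora stood at 45.7 ± 6.25 CPM in control and 51.3 ± 7.59 CPM in KO lungs. The Rora levels of the genotypes overlapped, and the part of the gene that the deletion removes was not measured on its own.

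Cilium genes are among the called genes. Shown here are the starts of 3 called genes that hold a short motif of the kind bound by RFX factors, the regulators of cilium genes. The motif GTTGCCNNG was searched on both strands of RefSeq promoters (build GRCm38.p6, 250 bases before to 50 bases after each gene's start). It was in 5.004% of 32851 promoters and in 7 of the 34 called genes with an entry, namely AU040972, Acox2, Cdhr3, Cdhr4, Dynlrb2, Nek2 and Rbp2. Within it, GTTGCC alone was in 12.51% of promoters and in 11 of the 34. The called cilium genes Dnah9, Rsph4a, Dnah6 and Cfap52 are in neither set of matches, and whether each has an entry is not given here. The forkhead motif TGTTTAC was in 3.65% of promoters and in 3 of the 34, namely Anxa8, Cd177 and Il33. The percentages count each RefSeq promoter, also of genes not tested. A called gene counts if any of its promoters matched, so the shares are not to be compared. Capitals mark the GTTGCCNNG match, or its complement CNNGGCAAC where it lies on the other strand.
Cdhr3, a cadherin-related protein of ciliated cells, chr12:33092826-33093125, minus strand: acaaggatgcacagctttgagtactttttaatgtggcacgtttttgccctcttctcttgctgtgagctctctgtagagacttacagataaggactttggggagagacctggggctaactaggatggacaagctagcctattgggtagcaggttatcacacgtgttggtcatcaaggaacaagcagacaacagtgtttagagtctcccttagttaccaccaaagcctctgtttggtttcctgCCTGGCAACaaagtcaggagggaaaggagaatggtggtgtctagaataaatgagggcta
Cdhr4, another cadherin-related protein, chr9:107992207-107992506, plus strand: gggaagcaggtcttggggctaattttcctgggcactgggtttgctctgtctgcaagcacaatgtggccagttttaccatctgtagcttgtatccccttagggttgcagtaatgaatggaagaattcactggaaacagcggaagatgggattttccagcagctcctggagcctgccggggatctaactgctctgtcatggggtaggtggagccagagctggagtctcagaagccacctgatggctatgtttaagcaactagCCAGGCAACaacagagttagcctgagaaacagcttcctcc
Dynlrb2, a light chain of dynein, chr8:116504765-116505064, plus strand: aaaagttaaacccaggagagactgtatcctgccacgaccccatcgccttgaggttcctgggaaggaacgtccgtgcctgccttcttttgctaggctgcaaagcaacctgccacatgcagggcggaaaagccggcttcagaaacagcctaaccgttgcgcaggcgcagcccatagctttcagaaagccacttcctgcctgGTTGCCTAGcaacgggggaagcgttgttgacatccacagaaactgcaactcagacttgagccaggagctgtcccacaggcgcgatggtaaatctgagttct
A match of letters is a description and does not show that a factor binds there.

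Club cell genes were the only group described here with more members called lower than higher, and its members did not move as 1 block. Scgb1a1 (ENSMUSG00000024653), the main secreted protein of club cells, stood at 6375, 4487 and 3193 CPM in treated control replicates 1 to 3 and at 3545 and 2307 CPM in treated KO replicates 1 and 2. Untreated lungs ran from 9434 through a median of 13303 to 16136 CPM. Every treated library lay below every untreated one. The log2 change was -1.78 (SE 0.23, edgeR adjusted p = 0.00198), and the call held in all 11 fits that leave out 1 library. The related secretoglobin Scgb3a2 (ENSMUSG00000038791) went the other way, with 1173, 1231 and 778 CPM in treated control lungs and 1065 and 776 CPM in treated KO lungs. Untreated lungs had 433, 536 and 747 CPM as lowest, median and highest. The groups did not overlap, but the log2 change of 0.80 (SE 0.16) missed the threshold with an edgeR adjusted p of 0.0608.

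Pon1, an esterase that hydrolyses lactones and organophosphates, had 5.93 ± 1.36 CPM in treated (SD, n = 5) and 11.6 ± 2.82 CPM in untreated lungs (SD, n = 6). Its log2 change was -1.0 (SE 0.19, edgeR adjusted p = 0.0473), and the call was lost in 10 of the 11 fits that leave out 1 library. The other named decrease is Atp2b2, a plasma membrane calcium pump, at -0.81 (SE 0.15, adjusted p = 0.0417), called in 1 of those fits. The gene model Gm55330, named here after its values were seen, was called lower at -1.86 (SE 0.29).

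Of 18 tested club cell genes, 3 were called lower, among them Scgb1a1 and Pon1, and none higher. Over all genes 0.0265% were called lower and 0.233% higher. In the club cell list 12 lay below 0, with a median log2 change of -0.32 against -0.006 over all genes. The list was chosen with earlier results of these data known, and 9 of the 18 were called lower at day 2. Its counts are therefore no independent test. Cbr2, a carbonyl reductase of club cells, had 1922 ± 560 CPM in treated and 2451 ± 652 CPM in untreated lungs and was not called. Cyp2f2, the P450 enzyme that activates naphthalene in mouse club cells, had 577, 600, 334, 348 and 287 CPM in the treated libraries against 377 to 1063 CPM in untreated ones. Those ranges overlap, and its log2 change of -0.82 (SE 0.25) was not called (edgeR adjusted p = 0.373). Among 15 genes of P450 enzymes and other oxidases, 1 was called higher and 1 lower, with a median of 0.00. The higher one is Cyp2s1, an epithelial P450, with 84.1 ± 13.2 CPM in treated and 51.8 ± 7.95 CPM in untreated lungs (log2 change 0.67, SE 0.12, adjusted p = 0.0325). Cyp2s1 kept its call in 3 of the 11 fits that leave out 1 library. Fmo2, a mono-oxygenase abundant in lung, lay at 785 ± 175 and 791 ± 118 CPM.

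**Figure D2:**
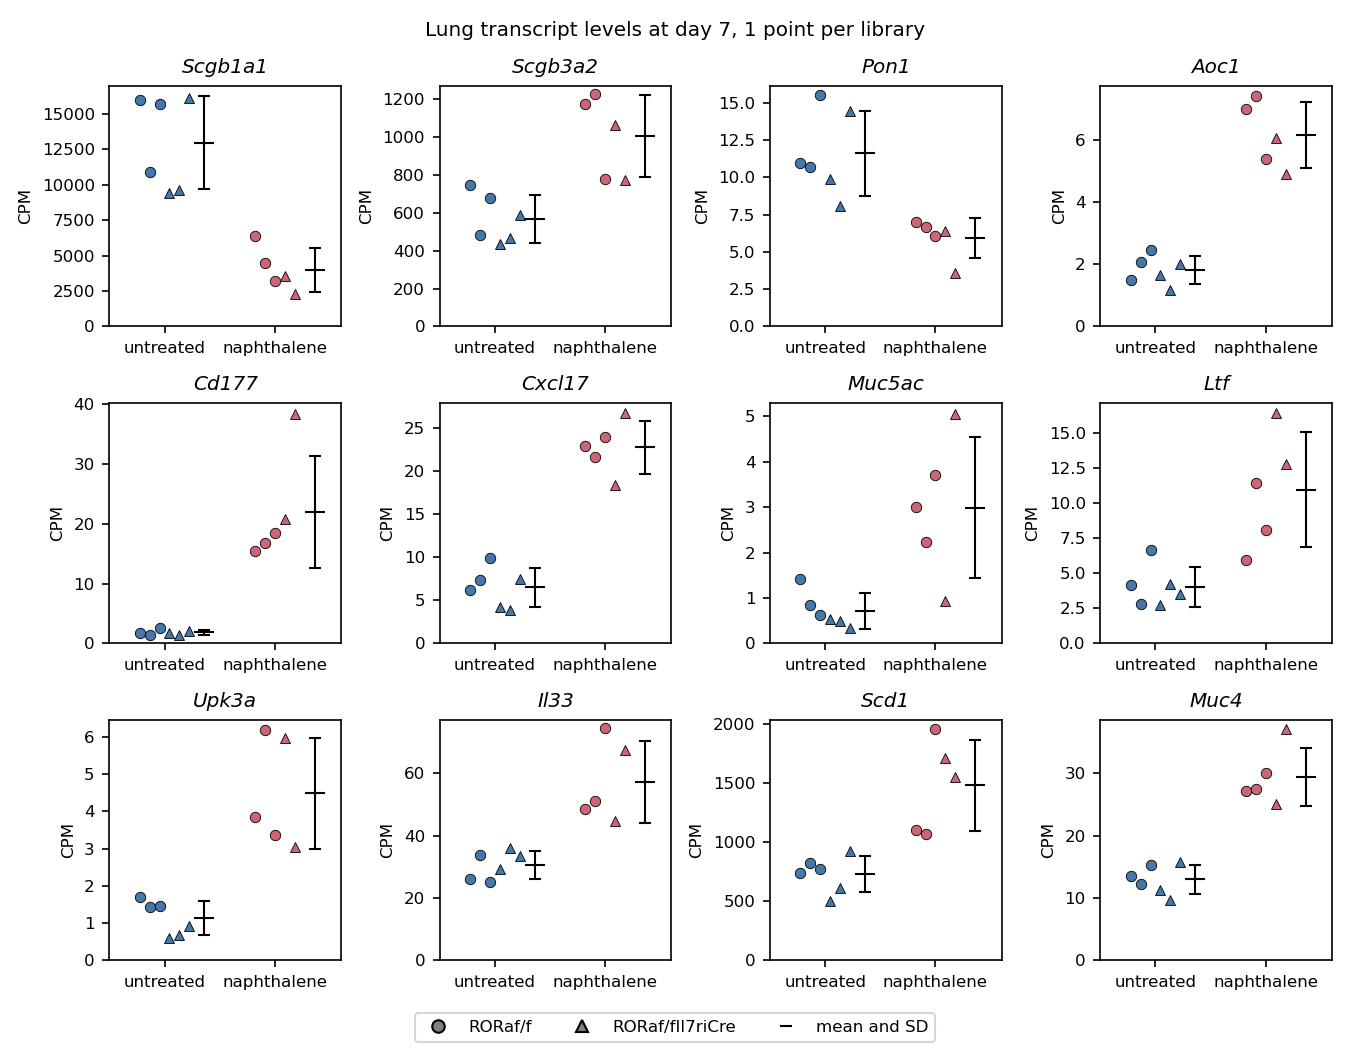
CPM of 12 genes in each day 7 library (vertical axes start at 0; circles are control, triangles are KO, black marks are mean and SD of all 6 untreated or 5 treated libraries). Treated and untreated points do not overlap in 10 of the panels and overlap for Muc5ac and Ltf.

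The increases with the smallest p were Cd177, AU040972, Wfdc3 and Cxcl17. Cd177 (ENSMUSG00000052212), a glycoprotein known from the neutrophil surface, had 15.5, 16.7 and 18.4 CPM in treated control lungs and 20.8 and 38.4 CPM in treated KO lungs. In untreated lungs it ran from 1.43 to 2.56 CPM with a median of 1.74 CPM. Every treated library was higher, with KO replicate 2 farthest up. The log2 change was 3.56 (SE 0.23, edgeR adjusted p = 1.92e-06). Wfdc3, a member of the four-disulfide core family of secreted protease inhibitors, had 7.49, 8.41, 5.31, 8.76 and 5.05 CPM in the same order, against 0.869 to 1.44 CPM in untreated lungs. The log2 change of Wfdc3 was 2.43 (SE 0.22, adjusted p = 5.66e-05). AU040972, a gene whose role is not given here, averaged 24.6 ± 3.17 CPM in treated and 6.69 ± 1.63 CPM in untreated lungs (log2 change 1.86, SE 0.15).

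Cxcl17 (ENSMUSG00000060188), a chemokine of mucosal epithelia, had 22.9, 21.6 and 24 CPM in treated control lungs and 18.4 and 26.8 CPM in treated KO lungs. Its untreated levels lay between 3.85 and 9.92 CPM, median 6.78 CPM. The groups did not overlap, and the log2 change was 1.79 (SE 0.20, edgeR adjusted p = 0.000561). Of 16 genes of secretory host defence, Cxcl17 and Ltf were called higher and none lower, with 14 above 0 and a median of 0.49. Over all genes 0.233% were called higher. Ltf, which encodes the iron-binding protein lactoferrin, had 5.95, 11.5, 8.08, 16.5 and 12.8 CPM in treated libraries and 2.73 to 6.63 CPM in untreated ones. Treated control replicate 1 lay within the untreated range of Ltf, and its call (log2 change 1.42, SE 0.27, adjusted p = 0.0431) held in 2 of the 11 fits that leave out 1 library. The lysozymes Lyz2 and Lyz1 stood at 0.28 and 0.23 and were not called, and the antibody transporter Pigr stood at -0.10.

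Genes associated with injured epithelium held the most calls of the lists described. Of 18 tested, 5 were called higher (0.233% over all genes) and none lower, with a median of 0.34. Besides Cd177 these were Upk3a, Ereg, Aoc1 and Psapl1. The list was chosen with earlier results of these data known, and 15 of the 18 were called higher at day 2. Its count of calls is therefore no independent test. Upk3a, a uroplakin also known from a small club cell subset that resists naphthalene, had 3.86, 6.18 and 3.36 CPM in treated control lungs and 5.97 and 3.05 CPM in treated KO lungs. Untreated lungs had 0.615 to 1.70 CPM, below each treated one. The log2 change of Upk3a was 1.98 (SE 0.27, edgeR adjusted p = 0.00397), held in all 11 fits that leave out 1 library. Aoc1, the diamine oxidase that breaks down histamine, averaged 6.14 ± 1.05 CPM against 1.81 ± 0.458 CPM (log2 change 1.73, SE 0.20, adjusted p = 0.000717).

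Ereg, an epidermal growth factor receptor ligand, had 0.454, 0.647, 1.42, 1.13 and 1.64 CPM in the treated libraries and at most 0.271 CPM in untreated ones (log2 change 2.83, SE 0.44, edgeR adjusted p = 0.0113). Its call was lost without treated KO replicate 2. Areg, a ligand of the same receptor that ILC2s can also make, had 3.40, 4.06, 6.84, 5.37 and 8.99 CPM, and 0.957 to 4.10 CPM in untreated lungs. Areg overlapped and was not called (log2 change 1.49, SE 0.32, adjusted p = 0.0908). Psapl1, a prosaposin-like protein, stood at 0.812 ± 0.190 CPM in treated and 0.154 ± 0.0751 CPM in untreated lungs, and kept its call in 4 of the 11 fits. Keratin 7 (Krt7) at 0.05, clusterin (Clu) at 0.57 and the surface protein Ly6d at -0.66 were not called. None of 9 basal cell genes was called, with Krt15, a keratin of basal cells, at 2.08 (SE 0.57, adjusted p = 0.282), Ngfr at -0.72, Bcam at -0.10 and Itga6 at 0.04.

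Among 14 goblet cell and mucin genes, Muc4 and Muc5ac were called higher, none was called lower, and all 14 lay above 0 with a median of 0.44. Over all genes 0.233% were called higher. The summed level of the list overlapped, at 295 to 565 CPM in treated and 183 to 442 CPM in untreated lungs. Muc4, a mucin anchored in the surface membrane, had 27.2, 27.5 and 30.1 CPM in treated control lungs and 25 and 37.2 CPM in treated KO lungs. The highest untreated library had 15.7 CPM and the median was 12.9 CPM. The groups were apart, with a log2 change of 1.18 (SE 0.15, edgeR adjusted p = 0.00198). Muc5ac, the gel-forming mucin of goblet cells, had 3.01, 2.24, 3.71, 0.929 and 5.05 CPM in the treated libraries and 0.343 to 1.43 CPM in untreated ones. Treated KO replicate 1 fell inside the untreated range, and the call (log2 change 2.06, SE 0.39, adjusted p = 0.0431) held in 2 of the 11 fits that leave out 1 library. Muc1, a membrane mucin, at 0.20 and Creb3l1 at 0.01 were not called. Clca1, a secreted goblet cell protein, was not called at 2.92 (SE 1.02), with 78.0 CPM in treated control replicate 1 and 1.26 CPM in treated KO replicate 1.

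Most parts of motile cilia lay above 0, and few single genes passed the test. Of 20 tested genes, Dnah9 and Rsph4a were called higher and none lower, while 19 lay above 0, with a median of 0.55. In 9 of the 20 the treated libraries lay above all untreated ones, against 1.05% over all genes. Of all genes, 0.233% were called higher. The list was chosen with earlier results of these data known, and 14 of the 20 were called higher at day 2. These counts are therefore no independent test. The summed level of the list overlapped, at 628 to 887 CPM in treated and 536 to 788 CPM in untreated lungs. Dnah9, an outer dynein arm heavy chain, had 11.4, 11.5 and 10.0 CPM in treated control lungs and 10.5 and 8.70 CPM in treated KO lungs. Untreated lungs ran from 5.59 to 7.04 CPM. The log2 change was 0.72 (SE 0.14, edgeR adjusted p = 0.0417), called in 1 of the 11 fits that leave out 1 library. Rsph4a, a radial spoke head protein, averaged 6.40 ± 1.19 CPM against 3.22 ± 0.772 CPM (log2 change 1.01, SE 0.20, adjusted p = 0.0473), and its call was lost in each of those fits.

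The microtubule proteins Tubb4b and Tppp3, which are made in other cells too, stood at 0.26 and -0.02. Further cilium genes outside that list were called higher and are named after their values were seen. They are the dynein chains Dnah6 (0.66) and Dynlrb2 (0.61), the axonemal protein Cfap52 (0.91), and Cdhr3 (0.69). Of the 11 fits that leave out 1 library, Dnah6 and Cfap52 were called in 0, Dynlrb2 in 1 and Cdhr3 in 2, and none of these genes was called with the sex term. Cdhr4, which the naming rule picked, rose by 1.09 on the log2 scale (SE 0.16, edgeR adjusted p = 0.00774) from 3.88 ± 0.822 to 8.36 ± 0.867 CPM. Nek2, a kinase of the centrosome, rose by 1.04 (SE 0.17, called in 6 of the 11 fits), and Liat1, a target of the arginyltransferase, by 1.01 (SE 0.14). None of 14 regulators of multiciliogenesis was called, while 11 lay above 0, with a median of 0.30. Foxj1, the master factor of motile cilia, had 72.5 ± 30.7 CPM in treated and 45.4 ± 18.4 CPM in untreated lungs, Deup1 of the deuterosome stood at 0.98 (SE 0.30), Gmnc at -0.75 and E2f4 at -0.18.

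In the lists of alveolar cells and of lipid synthesis 2 genes stood out. Scd1 (ENSMUSG00000037071), the stearoyl-CoA desaturase that makes mono-unsaturated fatty acids, had 1105, 1065 and 1958 CPM in treated control lungs and 1709 and 1550 CPM in treated KO lungs. Untreated lungs had 503, 753 and 923 CPM as lowest, median and highest. They did not overlap, and the log2 change was 1.02 (SE 0.19, edgeR adjusted p = 0.0417). The call was lost in 8 of the 11 fits that leave out 1 library. Of 19 genes of lipid synthesis Scd1 was the only one called, 18 lay above 0 and the median was 0.23, with Scd2 at 0.12 and the sterol factor Srebf1 at -0.04.

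Il33 (ENSMUSG00000024810), an alarmin that activates ILC2s and is made by alveolar type 2 cells of mouse lung among others, had 48.4, 51.1 and 74.6 CPM in treated control lungs and 44.7 and 67.4 CPM in treated KO lungs. Its untreated levels were 25.2 to 36.1 CPM, median 31.3 CPM. No untreated library reached a treated one, with a log2 change of 0.92 (SE 0.15, edgeR adjusted p = 0.0198). The call was lost without untreated control replicate 1 or 3, untreated KO replicate 1 or treated KO replicate 2. Il33 was the only call among 17 genes of alveolar type 2 cells (median 0.23) and among 10 alarmin and interleukin-1 family genes (median 0.21). The surfactant protein gene Sftpc at 0.08, the protease Napsa at -0.15, and the receptor chains Il1rap at 0.00 and Il1r1 at 0.12 were not called. All 14 genes of alveolar type 1 cells lay below 0, none called, with a median of -0.11. Among them were Ager, a receptor of their membrane, at -0.20, Vegfa at -0.16 and Igfbp2 at -0.56.

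**Figure D3:**
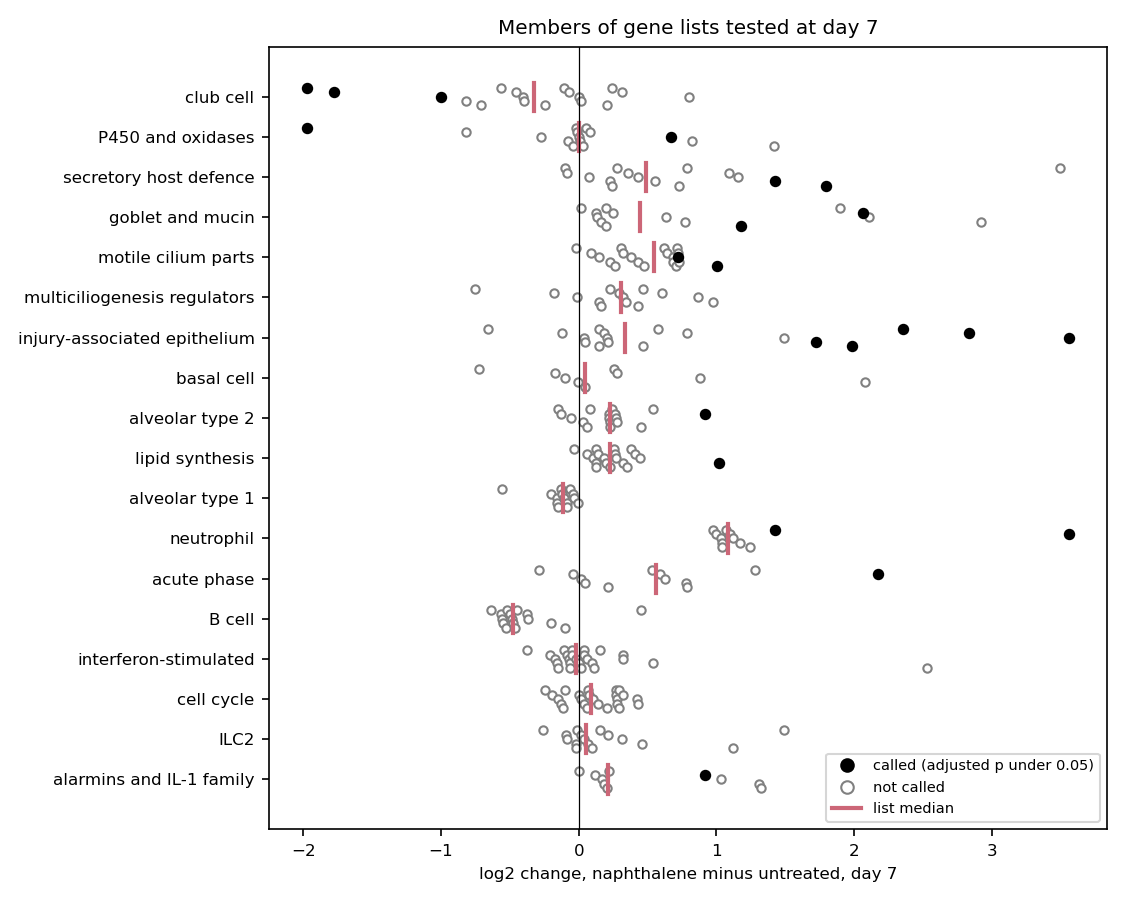
Log2 change between naphthalene and untreated lungs at day 7 (horizontal axis) for tested members of 18 gene lists, where each point is a gene, filled points are called and the vertical bars are list medians. Filled points lie left of 0 in the club cell and P450 lists alone, and the neutrophil median of 1.08 is the highest.

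Cd177 and Ltf are also neutrophil genes, so that list is described here. Its 12 members were all above 0 with a median of 1.08. Of these, 2 were called higher (Cd177 and Ltf, against 0.233% over all genes) and none lower. In 1 of the 12, Cd177, the treated libraries lay above all untreated ones, against 1.05% over all genes. The summed level of the list ran from 128 to 709 CPM in treated lungs and from 92.7 to 160 CPM in untreated ones. The highest was treated KO replicate 1, and treated control replicate 3, at 128 CPM, lay within the untreated range. S100a9, a calcium-binding protein of neutrophils, had 39.2, 44.7, 25.1, 204 and 27.9 CPM in the treated libraries and 19.7 to 39.2 CPM in untreated ones. Csf3r, the receptor for the neutrophil growth factor, was not called at 0.97 (SE 0.31). The library highest for Cd177, treated KO replicate 2, had a neutrophil sum of 159 CPM, near the top of the untreated range. The part of neutrophil RNA in Cd177, Ltf and the other called genes was not tested.

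Of 12 acute phase genes 10 lay above 0, with a median of 0.56. In 4 of the 12 the treated libraries lay above all untreated ones, against 1.05% over all genes. This list too was chosen with earlier results of these data known, and 5 of the 12 were called higher at day 2. Its counts are therefore no independent test. The summed level of the list overlapped, at 878 to 1187 CPM in treated and 615 to 1228 CPM in untreated lungs. Of these 12, Orm1 alone was called, higher (0.912 ± 0.263 CPM against 0.200 ± 0.0973 CPM, log2 change 2.18, SE 0.41, edgeR adjusted p = 0.0417). Orm1, a plasma glycoprotein, kept its call in 1 of the 11 fits that leave out 1 library, and haptoglobin (Hp) at 0.02 and Cebpd at -0.29 were not called. Among 16 B cell genes none was called, while 15 lay below 0 with a median of -0.48. The B cell sum was 188 to 437 CPM in treated and 364 to 463 CPM in untreated lungs. Cd79a, part of the B cell receptor, had 62.0, 50.6, 47.5, 32.1 and 18.1 CPM in treated libraries against 42.6 to 64.9 CPM. Bank1 lay at -0.64 without overlap, Ighm at -0.45 and Jchain at 0.45.

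No gene was called among 16 ILC2 genes (median 0.05), 25 interferon-stimulated genes (median -0.02) or 24 cell cycle genes (median 0.09). In the ILC2 list Areg had the smallest p of the members above 0, and the abundant members Hes1 and Ly6a stood at -0.26 and 0.01. Il7r and Rora stood at 0.09 and -0.08. Of the interferon genes, the chemokine Cxcl9 had 7.95 CPM in treated KO replicate 2 and at most 1.47 CPM in the other treated libraries (log2 change 2.53, SE 0.83). Bst2 at -0.05 and Ifi27l2a at -0.37 lay below 0. The replication genes Mcm2, Mcm3 and Pcna lay at -0.20, -0.24 and 0.04, and the mitotic kinase Aurka at 0.28.

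The 49 genes were chosen by an effect pooled over both genotypes, which largely fixes that their changes have the same sign in control and in KO lungs, as all 49 did. With 3 against 3 control libraries 4 genes (0.0212% of tested) were called, 3 higher (0.0159%) and 1 lower (0.00529%), among them Cd177, AU040972 and Wfdc3. With 2 against 3 KO libraries 10 genes (0.0529%) were called, 9 higher (0.0476%) and 1 lower (0.00529%), of which 9 are among the 49, among them those 3 and Cxcl17, Upk3a, Ghrl and Gm19935. Cd177 rose by 3.12 (SE 0.27) in control and 4.08 (SE 0.30) in KO lungs on the log2 scale. Scgb1a1 stood at -1.60 and -2.0, Upk3a at 1.54 and 2.59, Ltf at 0.90 and 2.06, and Wfdc3 at 2.41 and 2.47. The difference between genotypes was tested itself, and edgeR called 0 genes (0%), with 828 at an unadjusted p under 0.05, and DESeq2 called 0. On simulated data of this design, edgeR recovered 12% of 2-fold and 73% of 4-fold genotype differences. Those differences were set only in genes above a minimum mean CPM.

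**Figure D4:**
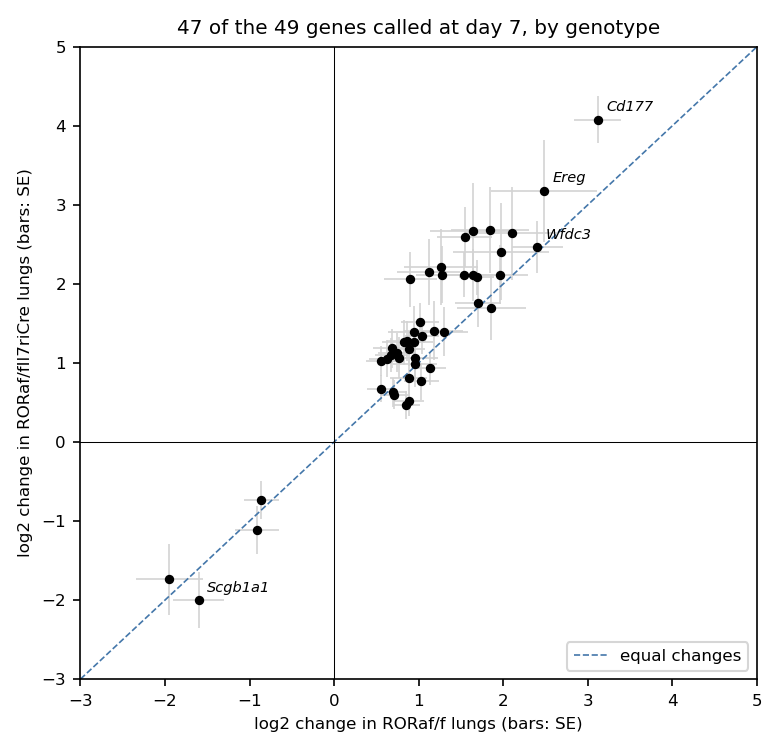
Log2 change in control lungs (horizontal axis) against log2 change in KO lungs (vertical axis) for 47 of the 49 called genes, with SE bars and a dashed line of equal changes. All 47 points lie in the quadrants of equal sign, and Cd177 lies at 3.12 and 4.08.

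The day 7 genes were set beside the earlier days in a fit of all 35 libraries. In that fit 2040 genes (9.9% of 20606) were called at day 2, 5.6% higher and 4.3% lower, and 1476 (7.16%) at day 5, 4.34% higher and 2.82% lower. At those days the treated and untreated libraries carry different letters in their library names, so letter and treatment cannot be told apart, while all 11 libraries of day 7 carry the letter p. Of the 49 genes, 41 were called in the same direction at day 2, 46 at day 5 and 40 at both. The day 5 total fell to 680 calls without untreated control replicate 1, an alternative chosen after the data were seen, and the count among the 49 was again 46. The change was smaller at day 7 than at day 2 for 37 genes and smaller than at day 5 for 40. Muc5ac alone was called at neither earlier day.

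The day 7 effect minus the day 2 effect was called for 209 genes (1.01%), 95 higher (0.461%) and 114 lower (0.553%), and for 14 of the 49. Leaving out 1 library left 107 to 334 calls. Scgb1a1 went from -3.77 (SE 0.21) at day 2 through -2.15 at day 5 to -1.80 (SE 0.21) at day 7, a difference between days 7 and 2 of 1.97 (SE 0.27, edgeR adjusted p = 0.00015). Scgb3a2 went from -2.26 to 0.73 and 0.81, with a difference of 3.08 (SE 0.36, adjusted p = 3.14e-05). Each effect is taken against untreated lungs of its own day, in which Scgb1a1 averaged 6705 ± 1252, 8547 ± 1221 and 13730 ± 3393 CPM at days 2, 5 and 7 (SD, n = 6 each, scaled over all 35 libraries).

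Of 18 genes of injured epithelium, 8 had a called difference toward a lower effect at day 7 than at day 2 and 1 toward a higher one. This list was chosen with earlier results of these data known, and 15 of the 18 were called higher at day 2. The counts are therefore no independent test. Psapl1 went from 6.93 at day 2 to 4.09 at day 5 and 2.37 at day 7 (difference of days 7 and 2 of -4.56, SE 0.78, edgeR adjusted p = 0.00212). Areg went from 3.96 to 1.56 and 1.5 (difference -2.46, SE 0.41, adjusted p = 0.00171), and Cxcl17 from 3.94 to 3.21 and 1.83 (difference -2.11, SE 0.42). Syt8 and Atg9b, called at day 2 at 4.01 and 3.39, stood at 0.13 and 0.63 at day 7, and Clca3a1 at 2.60 and 0.24. Cfap52 of the cilium went from 2.67 to 1.67 and 0.94, a called difference of -1.73 (SE 0.28). For Rsph4a, Dnah9 and Dynlrb2 the difference between days 7 and 2 was not called.

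Other genes had a higher effect at day 7 than at day 2. Muc5ac stood at -1.0, 0.76 and 2.16 at days 2, 5 and 7 (difference of days 7 and 2 of 3.16, SE 0.56, edgeR adjusted p = 0.00269). Upk3a stood at -0.72, 2.45 and 2.07 (difference 2.79, SE 0.49, adjusted p = 0.00271). The goblet cell genes Clca1 and Tff2 had differences of 9.09 (SE 2.00) and 4.07 (SE 0.85), and both were lower than in untreated lungs at day 2. Retnla, a secreted protein of alternatively activated macrophages and epithelium, differed by 3.51 (SE 0.82), and Ahsp, the haemoglobin-stabilising protein of red cells, by 2.96 (SE 0.69). In the day 7 libraries Clca1 stood at 2.92, Tff2 at -0.08, Retnla at 2.01 and Ahsp at 0.65, and none of those was called. Of 25 interferon-stimulated genes, 17 were called lower at day 2, none at day 7, and the difference was called for 10, all higher at day 7. Over all genes 4.3% were called lower at day 2, where library letter goes with treatment, and 0.461% had a difference called higher. Scd1 stood at 0.25, 2.23 and 1.04, and its differences from either day were not called.

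Between days 7 and 5 no gene was called by edgeR (0%), with 1378 at an unadjusted p under 0.05, and DESeq2 called 0 as well. Cd177 stood at 5.18 (SE 0.31) at day 5 and 3.6 (SE 0.31) at day 7, with a difference of -1.58 (SE 0.43, adjusted p = 0.519). Wfdc3 stood at 2.38, 2.49 and 2.44 over the 3 days and Il33 at 0.77, 0.81 and 0.90.

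**Figure D5:**
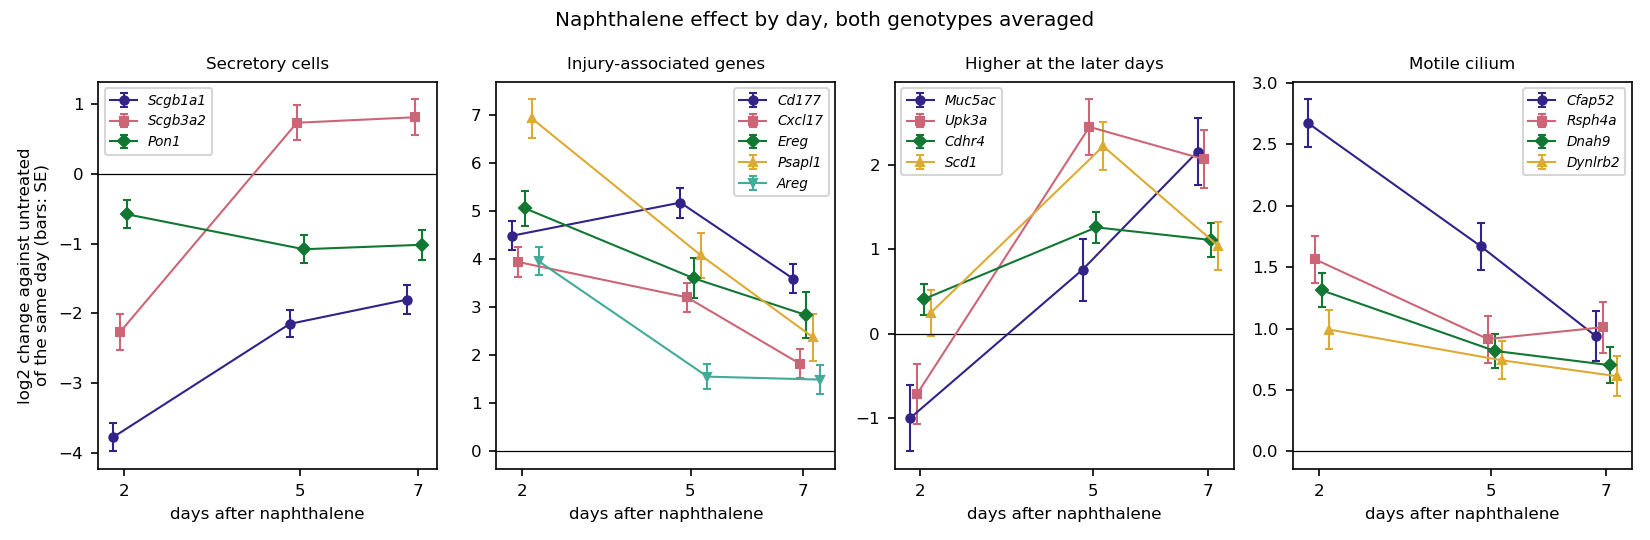
Log2 change against untreated lungs of the same day (vertical axes, bars are SE) at 2, 5 and 7 days after naphthalene (horizontal axes), averaged over genotypes, for 16 genes in 4 panels. Scgb1a1 lies at -3.77, -2.15 and -1.80, Scgb3a2 crosses 0 between days 2 and 5, and Muc5ac is highest at day 7.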

How the data were processed

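Counts per gene, whole numbers for 57186 Ensembl mouse genes, were used as deposited. The submitters' processing notes name GRCm39 and DESeq2 without a role. The name of the aligner, the counter or the annotation is not given in the sources used here. Genes were kept by filterByExpr on the 11 libraries (18889 genes) and scaled by TMM. The treatment effect, with genotype as covariate, was tested with edgeR 4.0.16 (R 4.3.3, robust quasi-likelihood F-test, two-sided), with Benjamini-Hochberg adjustment over all genes and a threshold of 0.05. The genotype difference used 4 group means, and the day comparisons used 12 group means of all 35 libraries (20606 genes). CPM were computed from the deposited counts with TMM factors. Each effect is given with the SE of its contrast and each level with the SD between libraries. DESeq2 1.42.0, limma 3.58.1 voom, other scalings, filters and designs, and leaving out each library were alternatives. The terms for sex and the day 5 fit without untreated control replicate 1 were chosen after the data were seen.

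Members and gene lists were chosen with earlier results of these data known. Named genes are the 10 largest increases and decreases among called genes with at least 5 CPM and no overlap (4 decreases qualified), the 5 smallest p, and for each list described the smallest p per direction, the 2 highest levels and every call. For the day 7 and day 2 difference they are the 5 largest in each direction. Other called genes were named after their values were seen. A few genes the rule picks are not reported here and stay in the counts. On simulated counts with 200 changed genes, edgeR recovered 77% of 2-fold and 100% of 4-fold day 7 changes, with 2 false calls among 179, and DESeq2 85% and 100%, with 19 among 204. For the difference of days 7 and 2, edgeR recovered 52% and 92%. The changed genes were drawn only from genes above a minimum mean CPM, so these shares do not cover genes at the lowest levels.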

Additional observations from a re-analysis of the deposited data

Results flagged for a closer look

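In 14 of 218 groups of 5 or 6 libraries looked at, 1 library stood apart from the rest, judged by its gap to the nearest value over the whole range of the group (Dixon's test). Chance gives this in about 1 in 20 groups. Treated KO replicate 2 was apart as the highest for Cd177 (38.4 CPM, next 20.8 CPM), Cxcl9 (7.95 CPM, next 1.47 CPM) and Sncg (6.69 CPM, next 4.47 CPM). It was also apart as the lowest for Bank1 (2.08 CPM, next 3.23 CPM) and Pon1 (3.57 CPM, next 6.07 CPM). Treated KO replicate 1 was apart as the highest for S100a9 (204 CPM, next 44.7 CPM) and as the lowest for Atp2b2 (3.52 CPM, next 5.22 CPM). Among treated control lungs, replicate 1 was highest for Clca1 (78.0 CPM, next 19.5 CPM) and replicate 3 lowest for Acox2 (3.30 CPM, next 4.64 CPM). Untreated control replicate 1 was highest for Clca1 (19.1 CPM, next 3.97 CPM) and Retnla (215 CPM, next 73.5 CPM), and replicate 2 lowest for Fam3d (0.518 CPM, next 1.14 CPM). Untreated KO replicate 1 was highest for the Rn18s-rs5 share (8.12%, next 3.43%) and lowest for Scd2 (407 CPM, next 543 CPM).

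For 24 of 105 genes looked at, the naphthalene effect at day 7 differed from that at day 2 by edgeR's test of the difference itself. Over all genes 209 of 20606 (1.01%) did, and 10 of the 24 were among those looked at because this difference was large, so the counts are not to be compared. The log2 difference (day 7 minus day 2) was above 0 for Clca1 (9.09), Cxcl9 (4.68), Tff2 (4.07), Retnla (3.51), Muc5ac (3.16), Scgb3a2 (3.08), Ahsp (2.96), Upk3a (2.79), Scgb1a1 (1.97) and 6330403K07Rik (1.94). It was below 0 for Psapl1 (-4.56), Syt8 (-3.88), Atg9b (-2.77), Areg (-2.46), Clca3a1 (-2.36), Cxcl17 (-2.11), Cfap52 (-1.73), Sptssb (-1.49), AU040972 (-1.44), Acox2 (-1.37), Cyp2s1 (-1.11), Muc4 (-1.09), Gm19935 (-0.91) and 2410004P03Rik (-0.86). Of these, 6330403K07Rik was called in opposite directions, at -1.02 (SE 0.25) on day 2 and at 0.90 (SE 0.17) in the day 7 libraries.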

How the results depend on the processing

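The count of 49 calls at day 7 became 216 with no filter on low counts, 122 with DESeq2, 77 in the fit of 35 libraries, 32 with a term for sex and 29 with the replicate block, and 23 to 29 when 1 library was left out. Other settings left it within 1.5 times. Control lungs alone gave 15 calls with DESeq2, 8 with 35 libraries and 1 to 3 with a library left out. KO lungs alone gave 56 with DESeq2, 3 with the replicate block and 3 to 17 with a library left out, the highest without treated KO replicate 2, where the 1 treated KO library left is assumed to vary like the other groups. The difference of days 7 and 2 gave 339 with DESeq2 and 107 to 334 with a library left out, the extremes without treated KO replicates 3 and 2 of day 2. The difference of days 7 and 5 gave 1 with only those days fitted, and 0 with a library left out, as did the genotype difference. The cause was not tested. Deviations from group means of same-numbered libraries correlated at -0.346 to 0.461, with 7 of 15 above 0.1. Those of other libraries from different groups correlated at -0.445 to 0.446. The deviations of the 2 treated KO libraries mirror each other by construction, so these values cannot decide whether the numbers pair libraries. Precision is limited by 5 and 6 libraries and by 1 read being worth up to 0.0766 CPM.

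Genes that changed sign were uncalled. Reversed log2 changes were Fmo2 -0.00289, Creb3l1 -0.019 and Il1rap 0.017 with 4 group means, and Fmo2 -0.012, Creb3l1 -0.0079, Tppp3 0.027, Bcam 0.022, Napsa 0.037, Srebf1 0.073 and Tff2 0.19 with the replicate block. Without a genotype term they were Fmo2 -0.011, Tppp3 0.0089, Srebf1 0.065 and Tff2 0.23. RLE factors gave Fmo2 -0.016 and Ly6a -0.000765, and library totals alone gave Tppp3 0.034, Srebf1 0.024, Il1rap 0.040 and Bst2 0.0047. Fmo2 was -0.00449 with no filter, -0.000327 with a stricter one and -0.0091 without Rn18s-rs5, haemoglobin and mitochondrial genes. The sex term gave Creb3l1 -0.0017, Hp -0.016, Ly6a -0.034 and Il1rap 0.077. Voom gave Fmo2 -0.018 and Creb3l1 -0.033, DESeq2 gave Fmo2 -0.016, Creb3l1 -0.00128 and Ly6a -0.00163, and 35 libraries gave Fmo2 -0.0027, Creb3l1 -0.020 and Il1rap 0.015. With 1 library left out, the ranges of genes that crossed 0 were Fmo2 -0.13 to 0.10, Creb3l1 -0.13 to 0.14, Il1rap -0.15 to 0.086, Hp -0.10 to 0.11, Syt8 -0.062 to 0.53 and Tppp3 -0.11 to 0.064. Further such ranges were Srebf1 -0.20 to 0.13, Pcna -0.18 to 0.15, Bst2 -0.15 to 0.063, Ly6a -0.11 to 0.086, Krt7 -0.029 to 0.082, Sftpc -0.026 to 0.21 and Bcam -0.23 to 0.076. The rest were Napsa -0.29 to 0.083, Tff2 -0.47 to 0.29, Pigr -0.62 to 0.10, Itga6 -0.056 to 0.10, Clca3a1 -0.036 to 0.38, Il7r -0.039 to 0.20 and Ahsp -0.50 to 0.95. Treated minus untreated medians differed by 1.07 M counts and -0.113 points of mitochondrial share, and means with a library left out by -1.31 to 0.171 M counts, -0.366 to 0.0148 points of haemoglobin share and -0.0113 to 0.159 points of mitochondrial share.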

Other observations

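Other called genes outside the lists are named after their values were seen. Mfsd2a, a transporter of lysophospholipids, had 3.46, 4.12, 4.72, 5.57 and 3.12 CPM in the treated libraries and 0.621 to 1.36 CPM in untreated ones (log2 change 2.03, SE 0.24, edgeR adjusted p = 0.00119). Subunits of serine palmitoyltransferase, the first enzyme of sphingolipid synthesis, were both called higher, Sptlc3 at 1.78 (SE 0.28) and Sptssb at 1.58 (SE 0.30). The peroxisomal oxidase Acox2 stood at 1.14, the retinol-binding protein Rbp2 at 1.70 and the endocytic receptor Lrp2 at 0.87. Ghrl, which encodes the hormone ghrelin, rose from 1.11 ± 0.291 to 4.02 ± 0.939 CPM (log2 change 1.87, SE 0.23). Sncg, a synuclein, stood at 1.34, the protease inhibitor Wfdc13 at 1.64, the membrane protein Tmc5 at 2.19 and annexin Anxa8 at 0.97. Mfsd2a, Ghrl, Sncg and Wfdc13 were called in each of the 11 fits that leave out 1 library, Sptlc3 in 10 and Tmc5 in 9 of them. Lrp2 was called in 3, Sptssb and Anxa8 in 1, and Acox2 and Rbp2 in 0 of them.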
